A study of Arabidopsis thaliana with 47 samples.

Results

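MORC7 occupied 6424 regions in wild-type Arabidopsis thaliana, and 1085 of them had their midpoint inside a protein-coding gene of a chromosome arm. These 1085 regions, called genic arm regions here, are the subject of this report. A MORC7 region was an interval of overlapping peaks with a peak in at least 2 of the 3 wild-type MORC7-FLAG lists, each peak with a −log10 q value above 2 and a fold enrichment above 2. A genic arm region also lay more than 3 Mb from the centromere position of its chromosome. The other regions were 3245 on the arms outside protein-coding genes, by midpoint, and 2094 pericentromeric ones within 3 Mb. The 1085 regions fell in 1072 genes, called hosts, of which 35 held more than 1 region and none more than 3. In 23 regions the midpoint lay in 2 overlapping protein-coding genes. Chromosome 1 had 303 genic arm regions, chromosome 2 had 182, chromosome 3 had 200, chromosome 4 had 161 and chromosome 5 had 239.

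MORC proteins of plants and animals use an ATPase domain to clamp onto DNA, and their loss lets silenced genes and transposons be transcribed. In plants they are tied to RNA-directed DNA methylation (RdDM), in which RNA polymerase IV makes precursors of small RNAs and RNA polymerase V makes scaffold transcripts that guide a methyltransferase to the DNA. NRPD1 and NRPE1 are the largest subunits of Pol IV and Pol V, DMS3 is part of the complex that brings Pol V to chromatin, and MET1 copies CG methylation after replication.

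The peak lists came from 22 ChIP-seq libraries of Columbia-0 plants, labelled as floral tissue of plants aged 5 to 6 weeks. MORC7-FLAG, a transgene with the MORC7 promoter first placed in plants that lack MORC7 (morc7-1), was precipitated with anti-FLAG in nrpd1 (2 libraries), nrpe1 (2), nrpd1 nrpe1 (2), dms3 (3), met1 (1) and wild type (3), and in plants that also carried ZF-DMS3-HA (1). ZF-DMS3-HA joins DMS3 to an artificial zinc finger under the UBQ10 promoter, and it was precipitated with anti-HA in 1 library, beside anti-HA from plants with MORC7-FLAG only (1). The RdDM alleles were nrpd1-4, nrpe1-11 and dms3-4, and these plants were F2 or F3 progeny of crosses, homozygous for the mutation and with 1 or both copies of the transgene. The met1 allele was met1-3. Whether the plants from crosses also lacked native MORC7 is not given in the sources used here. MORC4-FLAG was driven by its own promoter in plants that lack MORC4 (2 libraries). RNA polymerase II was precipitated in hex, which is mutant in 6 MORC genes (MORC1, 2, 4, 5, 6 and 7), and in wild type (1 library each). Wild-type plants without a tagged protein gave 2 anti-FLAG libraries. RNA-seq comprised 3 libraries labelled hex, 3 labelled nrpe1 and 3 of WT, with the same tissue and age in the labels, whereas the methods of the study name younger seedlings for RNA. Nothing in the labels says that replicates came from separate plants or pools, so their spread may be technical.

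Runs of alternating G and A, or C and T, were more frequent around summits near gene starts than at all arm gene starts. The sequences of 6 genic arm regions with a summit within 300 bp of the transcription start are therefore shown first. They are the 6 with the highest fold enrichment (the lowest of the 3 wild-type values) among the 260 such regions with a match within 100 bp of the summit. Each stretch of 30 bases is written 5′ to 3′ on the strand of its host, from the TAIR10.1 RefSeq genome, and lies in the 5′ UTR. Capitals mark GAGAGA or TCTCTC. KAN2 and KAN3 encode KANADI transcription factors of organ polarity, SPL13A a transcription factor of the SBP family, TMK1 a receptor-like kinase, AT3G23690 a bHLH protein and AT3G13000 a protein with a DUF547 domain.
KAN2, chr1:11630692-11630721, minus strand: ctTCTCTCTCcTCTCTCTCacacacactca
SPL13A, chr5:20584536-20584565, minus strand: tcatcaattTCTCTCTCTCtttcctctttc
TMK1, chr1:24631387-24631416, plus strand: atcttcttcctTCTCTCTCaatggcccatc
AT3G23690, chr3:8531235-8531264, minus strand: cacatgcTCTCTCTCTCTCTCTCtttcttc
KAN3, chr4:9850849-9850878, minus strand: tccctattttTCTCTCTCtaattctttaca
AT3G13000, chr3:4161928-4161957, minus strand: tctagtaaggcaGAGAGAtagatatttttt

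The run in AT3G23690 was the longest of the 6, with 6 overlapping matches, whereas AT3G13000 had 1 match. The fold enrichments of these regions in MORC7-FLAG replicates 1, 2 and 3 were 4.92, 5.44 and 4.89 for KAN2, and 5.79, 4.34 and 5.18 for SPL13A. They were 5.13, 4.00 and 5.24 for TMK1, and 4.20, 3.75 and 6.28 for KAN3. All 6 regions had a peak in each of the 9 MORC7-FLAG lists of RdDM mutants. The fold enrichment of a peak is the authors' value within its own list.

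The 5 regions with the highest fold enrichment are shown as a second set, because 4 of them also had a peak in both MORC4-FLAG lists and 2 were the only genic arm regions with a peak in the HA control. For each, the 121 bases without UTR sequence nearest to the summit are given, with CG sites, the target of MET1, in capitals. ATAUX2-11 encodes a member of the AUX/IAA repressors of auxin signalling and ACT2 a vegetative actin. AT1G56100 encodes a protein of the pectin methylesterase inhibitor family and AT5G22860 a serine carboxypeptidase of the S28 family. AT4G24970 is MORC7 itself.
ATAUX2-11, chr5:17550058-17550178, plus strand: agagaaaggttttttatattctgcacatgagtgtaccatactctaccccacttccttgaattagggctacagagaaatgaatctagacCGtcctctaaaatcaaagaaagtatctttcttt
AT1G56100, chr1:20979519-20979639, minus strand: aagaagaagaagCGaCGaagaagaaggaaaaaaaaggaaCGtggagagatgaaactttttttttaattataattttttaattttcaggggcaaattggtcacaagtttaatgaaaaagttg
ACT2, chr3:6474589-6474709, plus strand: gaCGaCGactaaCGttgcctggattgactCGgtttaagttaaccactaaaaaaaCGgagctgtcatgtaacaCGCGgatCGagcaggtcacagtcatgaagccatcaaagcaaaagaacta
AT5G22860, chr5:7640709-7640829, minus strand: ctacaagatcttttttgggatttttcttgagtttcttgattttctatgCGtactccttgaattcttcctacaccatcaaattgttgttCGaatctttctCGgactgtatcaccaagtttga
MORC7, chr4:12830751-12830871, plus strand: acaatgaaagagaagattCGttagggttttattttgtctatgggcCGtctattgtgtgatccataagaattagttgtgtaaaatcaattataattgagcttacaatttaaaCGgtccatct

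The stretches of ATAUX2-11, ACT2 and MORC7 lie upstream of the transcription start, that of AT1G56100 downstream of the gene, where the summit lies, and that of AT5G22860 in coding sequence. The stretch upstream of ACT2 holds 8 CG sites and that upstream of ATAUX2-11 holds 1.

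The genic arm regions clustered at the 5′ ends of their hosts. With the host split into 10 equal bins from 5′ to 3′, the midpoint of 412 of 1085 regions (38.0%) fell in bin 1 and of 146 (13.5%) in bin 2, against 42 (3.87%) in bin 8, the lowest, and 90 (8.29%) in bin 10. By the RefSeq annotation the midpoint was in a 5′ UTR in 482 regions (44.4%), in an intron in 260 (24.0%), in coding sequence in 176 (16.2%), in a 3′ UTR in 123 (11.3%) and in another exon stretch in 44 (4.06%). The rule asked only for a midpoint inside the gene, so the place within the gene was not part of the choice. A region extended over the transcription start in 616 cases (56.8%) and lay wholly inside the host in 337 (31.1%). The summit of the peak with the highest −log10 q value was at a median of 367 bp downstream of the start, with quartiles of 66 and 1471 bp. Summits within 300 bp of the start were counted in 503 regions (46.4%) and summits more than 1000 bp downstream in 366 (33.7%). Both limits were chosen after the values were seen. The second kind is called a summit in the gene body below. It has no limit at the 3′ end, and some of these summits lay past it, as at AT1G56100 and AT1G13470. The regions were 272 to 20835 bp long with a median of 878 bp, against medians of 917 bp for the other arm regions and 1626 bp for the pericentromeric regions.

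**Figure D1:**
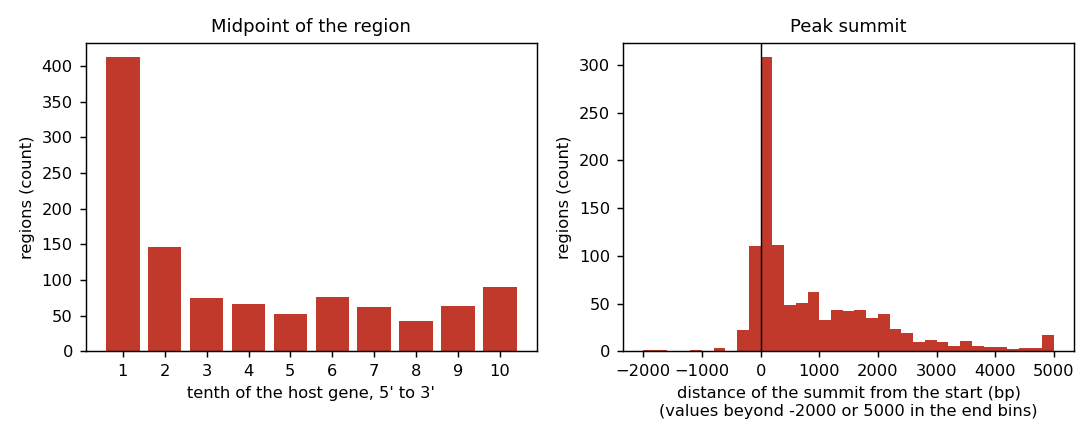
Left, count of the 1085 genic arm regions by which of 10 equal bins of the host gene, from 5′ to 3′, held the midpoint; right, count by the distance of the peak summit from the transcription start in bp, negative upstream. Bin 1 held 412 regions, and 503 summits lay within 300 bp of the start.

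The base composition around the summits differed between the kinds of regions. In windows of 201 bp centred on the summit, the median GC content was 35.8% in genic arm regions, 33.8% in other arm regions and 32.8% in pericentromeric regions, beside 34.3% in windows at the starts and 39.8% in windows at the middles of all protein-coding genes of the arms. The mean number of CG sites per window was 4.22 in genic arm regions, 4.54 in other arm regions and 5.24 at gene starts. A window with no CG site occurred in 19.1% of genic arm regions, against 11.1% of other arm regions, 9.03% of pericentromeric regions and 3.74% of gene starts.

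Among 5 short motifs searched on both strands, GAGAGA was the most frequent in the genic arm regions. It occurred in 419 of 1085 windows (38.6%), against 26.8% of other arm regions, 23.9% of pericentromeric regions, 31.2% of gene starts and 17.3% of gene middles. Within the genic arm regions it was in 260 of 503 windows (51.7%) with a summit near the start and in 92 of 366 (25.1%) with a summit in the gene body. CACGTG, the G-box, was in 10.2% of genic arm windows and 11.2% of other arm windows, against 3.25% of pericentromeric windows and 6.01% of gene starts. AAACCCT, the telo-box, was in 6.36% of genic arm windows, against 4.65% of other arm windows, 6.06% of pericentromeric windows and 9.68% of gene starts. TGGGCC, a site II element, was in 7.0% of genic arm windows, against 9.06% of other arm windows, 11.4% of pericentromeric windows and 12.2% of gene starts. TATAAA was in 26.9% of genic arm windows, against 33.3% of other arm windows, 32.4% of pericentromeric windows and 37.9% of gene starts. The windows of regions were centred on summits and those of gene starts were not, so position in the gene was not matched between them. A match is a string of letters, and no binding was tested. None of the 5 motifs contains another, and the set was chosen with earlier results known.

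**Figure D2:**
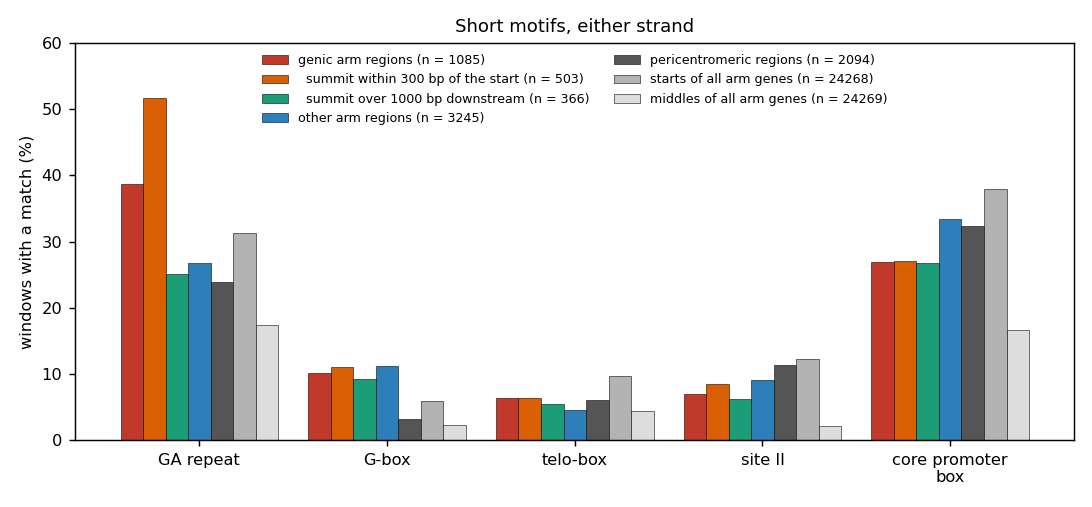
Share of 201 bp windows with each of 5 motifs (percent), for all genic arm regions, their subsets by summit position, the 2 other kinds of MORC7 regions, and the starts and middles of all protein-coding genes of the arms. The GA repeat was in 51.7% of windows with a summit near the start, against 31.2% at all gene starts.

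The fold enrichments in the wild-type lists chose the regions and are given as a description. Of the 1085 regions, 463 had a peak in all 3 lists and 622 in 2. The median fold enrichment of their peaks was 2.64 in replicate 1, 2.47 in replicate 2 and 2.88 in replicate 3, against 2.79, 2.67 and 3.85 for the other MORC7 regions in the same lists. The highest value was 6.13 in replicate 1, 8.13 in replicate 2 and 8.54 in replicate 3. The lowest peak of a genic arm region had 2.0003, against 1.99995 for the highest peak left out. The region nearest to a centromere position lay 3.002 Mb from it, against 2.998 Mb for the farthest of 208 pericentromeric regions with a midpoint in a protein-coding gene. Replicate 1 kept 8173 peaks over 7.32 Mb, replicate 2 kept 8259 over 1.97 Mb and replicate 3 kept 7952 over 10.8 Mb. The lists of replicate 1 and of dms3 replicates 2 and 3 had another form than the rest, in that some peaks were entered more than once and −log10 q values started at 2. The number of reads behind each list is unknown.

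ATAUX2-11 had the region with the highest lowest value, chr5:17549107-17552315, which covered the whole gene. Its fold enrichment was 6.13, 6.23 and 6.60 in wild-type replicates 1, 2 and 3. The region at AT1G56100, chr1:20978014-20983018, had 5.94, 8.13 and 6.72, and the region over the start of ACT2, chr3:6473929-6475735, had 5.86, 7.72 and 6.18. The region at AT5G22860, chr5:7638558-7641850, had 6.04, 5.12 and 6.97. The region at MORC7, chr4:12826923-12838098, was 11176 bp long and covered the whole gene, with 6.03, 6.53 and 5.01. The MORC7-FLAG transgene carries the MORC7 gene and its promoter, so reads from the transgene cannot be told apart from reads of the native locus here. ACT2 and MORC7 also had a peak with anti-HA in plants with MORC7-FLAG only, at 5.76 and 4.96. The part of such signal in their MORC7-FLAG and MORC4-FLAG values was not tested.

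In the RdDM mutants, genic arm regions had a MORC7 peak less often than other arm regions in 7 of 9 lists and less often than pericentromeric regions in 8 of 9. In nrpd1, 484 of 1085 regions (44.6%) had a peak in replicate 1 and 486 (44.8%) in replicate 2, against backgrounds of 65.8% and 68.5% over all 6424 MORC7 regions. In nrpe1, 53.4% had a peak in replicate 1 and 66.9% in replicate 2, against 63.0% and 74.3% over all regions. In nrpd1 nrpe1 the shares were 47.1% and 22.5%, against 67.1% and 42.9% over all regions. In dms3 they were 43.2%, 85.7% and 64.9%, against 63.7%, 82.4% and 66.4% over all regions. The mean was 44.7% ± 0.130 in nrpd1, 60.1% ± 9.58 in nrpe1 and 34.8% ± 17.4 in nrpd1 nrpe1 (SD, n = 2 each), and 64.6% ± 21.2 in dms3 (SD, n = 3). Over the 9 lists it was 52.6% ± 18.0 for genic arm regions, 59.9% ± 12.8 for other arm regions and 82.5% ± 8.35 for pericentromeric regions (SD, n = 9). The difference between genic arm and other arm regions was −15.3 to 5.96 percentage points, with dms3 replicates 2 and 3 above 0. Against pericentromeric regions it was −49.2 to 0.948 points, with dms3 replicate 2 alone above 0. The same order was seen in wild-type replicate 3, at 70.5% of genic arm, 80.5% of other arm and 98.7% of pericentromeric regions. Wild-type replicate 2 had the reverse order, at 73.6%, 64.1% and 45.5%, and replicate 1 had 98.5%, 97.7% and 98.7%. The wild-type lists helped to choose the regions, so their shares are a description. Pericentromeric regions were longer, and a longer region has more bases that a peak can overlap. In the wild-type lists, peaks of genic arm regions had lower median fold enrichments than those of the other regions, nearer the minimum of 2. The parts of length and of peak strength in the differences were not tested.

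**Figure D3:**
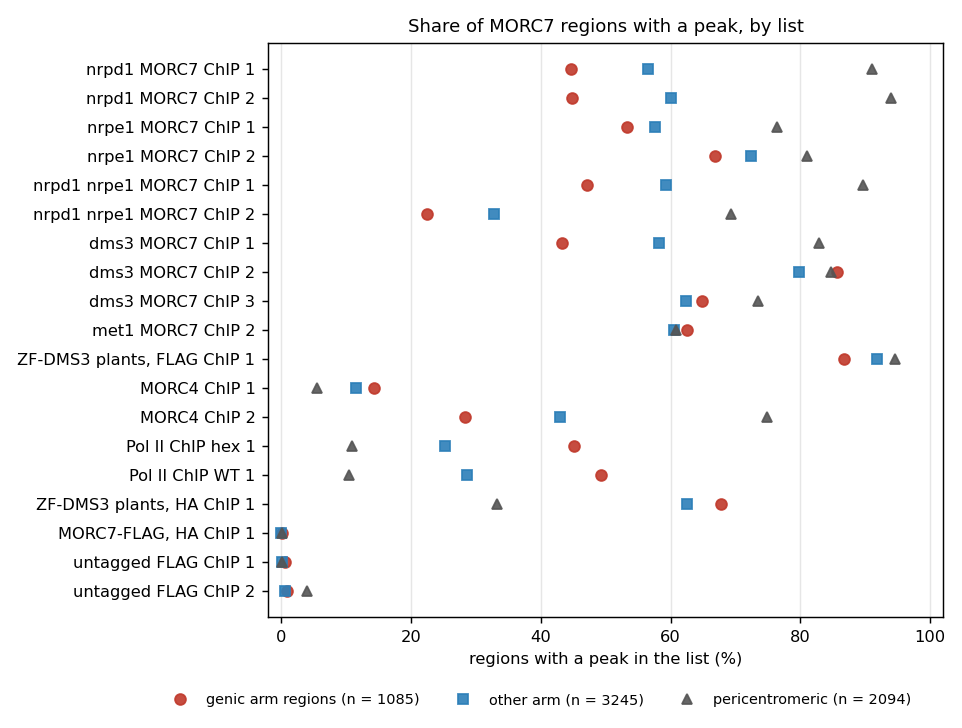
Share of MORC7 regions with a peak (percent, x axis) in each of 19 lists (rows), for 1085 genic arm regions (circles), 3245 other arm regions (squares) and 2094 pericentromeric regions (triangles). In nrpd1 the genic arm regions sit at 44.6% and 44.8%, and in the Pol II lists at 45.2% in hex and 49.3% in WT, to the right of the other regions.

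Wild-type lists could be scored in the same way only on regions they had not helped to choose. Each was therefore scored on genic arm regions called in both other wild-type lists, and the mutants on the same 3 sets. A mutant list was given its mean over the 3 sets and a wild-type list its value on 1 set. The SDs and ranges of the 2 groups therefore do not measure the same spread. The share was 63.3% ± 17.3 over the 9 RdDM mutant lists (SD, n = 9, 29.7% to 90.7%) and 72.7% ± 20.7 over the 3 wild-type lists (SD, n = 3, 59.6% to 96.6%), and the 2 groups overlapped. By genotype it was 56.1% ± 0.739 in nrpd1, 72.4% ± 8.72 in nrpe1 and 45.0% ± 21.7 in nrpd1 nrpe1 (SD, n = 2 each), and 74.1% ± 16.8 in dms3 (SD, n = 3). The met1 list had 75.3% (69.2% to 86.8% over the 3 sets), within the range of the wild-type lists. The names of the peaks carry a date in 19 of 22 lists, and only 1 date joins wild-type and RdDM mutant lists. On that date nrpd1 replicates 1 and 2 had 41.3% and 39.6% and nrpd1 nrpe1 replicate 1 had 45.2% of 792 regions, against 59.6% in wild-type replicate 3. Among the lists without a date, dms3 replicates 2 and 3 had 93.2% and 80.3% of 468 regions, against 96.6% in wild-type replicate 1. In both comparisons each mutant list was below the wild-type list, of which there was 1. A missing date does not show that lists were made together. On the third set, of 750 regions, wild-type replicate 2 had 61.9%, and no mutant list carries its date. There nrpd1 nrpe1 replicate 2 and dms3 replicate 1 were lower, at 31.6% and 59.3%. The other RdDM mutant lists were higher, at 62.4% to 87.9%.

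Single regions ranged from a peak in every mutant list to a peak in none. A peak in all 9 RdDM mutant lists was found at 178 genic arm regions (16.4%), against a background of 35.7% of all MORC7 regions, with 27.2% of other arm regions and 58.7% of pericentromeric regions. A peak in no RdDM mutant list was found at 75 (6.91%), against 6.13% of all regions. The most frequent count other than 9 was 3 of 9 lists, at 158 regions (14.6%). All 5 regions described above as the highest had a peak in all 9. At ATAUX2-11 the mutant values ran from 5.14 in nrpe1 replicate 2 to 11.01 in nrpe1 replicate 1, against 6.13 to 6.60 in wild type. At ACT2 they ran from 4.68 to 15.3 in the same 2 nrpe1 lists, against 5.86 to 7.72 in wild type. Fold enrichments of different lists rest on different backgrounds and depths, so values of different lists are set side by side as a description and no difference between them was tested.

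In met1, which loses CG methylation, 678 of 1085 genic arm regions had a MORC7 peak, a share of 62.5% (exact 95% interval 59.5 to 65.4). The background over all MORC7 regions was 61.0%, with 60.6% of other arm regions and 60.9% of pericentromeric regions. There was 1 met1 list, so it has no replicate error. The lists of nrpe1 replicate 2 and dms3 replicate 1 carry the same date as met1 and held 66.9% and 43.2% of the genic arm regions. The anti-FLAG list of ZF-DMS3-HA plants carries that date too and held 86.7%. None of the 3 wild-type MORC7-FLAG lists carries it. A peak in all 9 RdDM mutant lists and none in met1 was found at 34 genic arm regions (3.13%), against 9.32% of all MORC7 regions, 8.17% of other arm regions and 14.3% of pericentromeric regions. The reverse, a peak in met1 and in no RdDM mutant list, was found at 23 (2.12%), against 1.32% of all regions.

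The 5 strongest of those 34 regions were at ARR9, COQ3, SLD5, FMO GS-OX2 and LHCA2. ARR9 encodes a response regulator of cytokinin signalling, COQ3 a methyltransferase of ubiquinone synthesis and SLD5 a subunit of the GINS replication complex. FMO GS-OX2 encodes an enzyme of glucosinolate side-chain oxidation and LHCA2 a light-harvesting protein of photosystem I. The region at ARR9, chr3:21108777-21110672, had fold enrichments of 3.24 to 8.07 in the RdDM mutants, against 3.36, 2.94 and 5.39 in wild type. The region at COQ3, chr2:13159856-13161315, had 2.93 to 5.97 in the mutants, against 5.38, 2.74 and 6.77 in wild type. Stretches of 121 bases nearest to the summit and free of UTR sequence are given for these 2, both from introns, with CG sites in capitals, because CG methylation is what met1 loses.
ARR9, chr3:21109264-21109384, plus strand: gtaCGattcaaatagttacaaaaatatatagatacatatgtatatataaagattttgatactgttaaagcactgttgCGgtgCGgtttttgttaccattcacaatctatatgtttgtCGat
COQ3, chr2:13160210-13160330, minus strand: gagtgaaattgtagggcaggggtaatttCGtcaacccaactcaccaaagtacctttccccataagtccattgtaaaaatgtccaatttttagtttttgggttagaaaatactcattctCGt
The stretch in ARR9 holds 4 CG sites and that in COQ3 holds 2. Methylation of these sites was not analysed here.

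The position in the gene went with the share in the RdDM mutants. Regions with a summit within 300 bp of the start had a peak in 48.5% ± 19.7 and regions with a summit more than 1000 bp downstream in 56.6% ± 18.1 over the 9 lists (SD, n = 9 each). The first share was lower in 9 of 9 lists, by 3.31 to 13.7 percentage points. It was no longer lower when wild-type replicate 2 was left out of the choice of regions (66.4% near the start, 64.1% in the body) or with the 2000 highest peaks of each list (55.2% near the start, 52.7% in the body). In met1 the shares were 63.0% near the start and 61.5% in the body. In wild-type replicate 3 they were 58.4% and 79.8%, the same direction as in the mutants. Wild-type replicate 2 had the reverse, 82.9% and 65.3%, and replicate 1 had 98.6% for both. These 3 lists helped to choose the regions, so the values are a description.

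**Figure D4:**
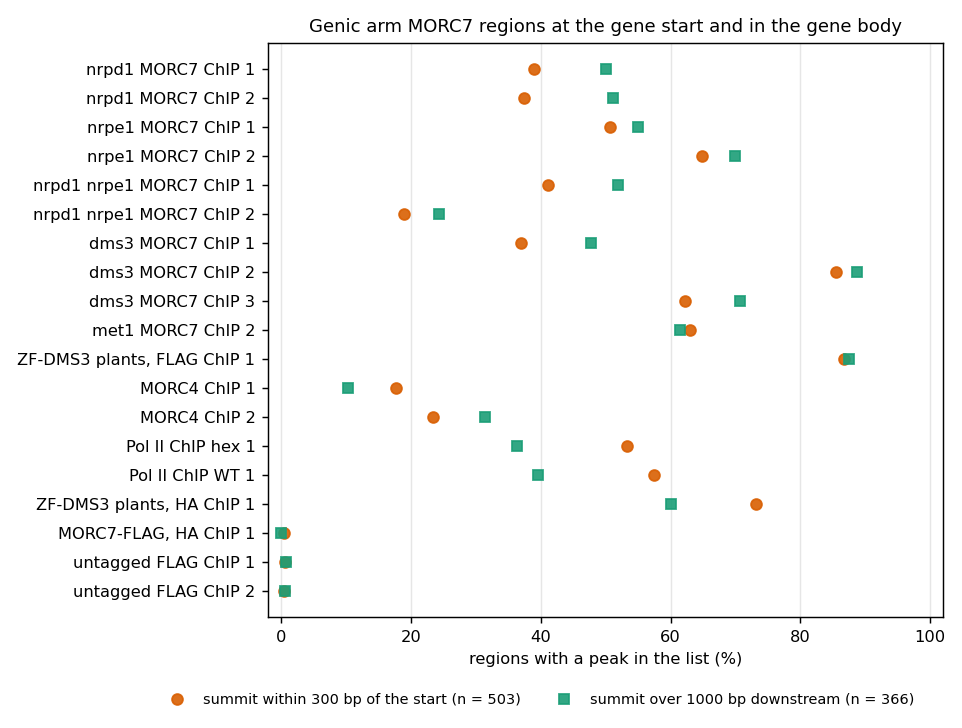
Share of genic arm regions with a peak (percent, x axis) in each of 19 lists (rows), for 503 regions with a summit within 300 bp of the transcription start (circles) and 366 with a summit more than 1000 bp downstream (squares). The circles lie left of the squares in the 9 RdDM mutant lists and right of them in both Pol II lists.

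MORC4, a close homologue of MORC7, had a peak at 14.3% of genic arm regions in replicate 1 and 28.3% in replicate 2, against backgrounds of 10.1% and 50.9%, and the 2 lists differed in direction. In replicate 1 the genic arm regions had more peaks than other arm regions (11.6%) and pericentromeric regions (5.59%), whereas in replicate 2 they had fewer (43.0% and 74.9%). Replicate 1 held 1766 peaks with a median width of 115 bp and replicate 2 held 7855 with a median width of 334 bp. A peak in both lists was found at 43 genic arm regions (3.96%), against 4.19% of all MORC7 regions. The strongest of these were ATAUX2-11, AT1G56100, ACT2, MORC7 and AT5G52070, which encodes a protein with an Agenet domain. The MORC4 fold enrichments in replicates 1 and 2 were 3.25 and 5.49 at ATAUX2-11, 5.03 and 11.99 at AT1G56100, 5.90 and 8.48 at ACT2, 2.27 and 2.08 at MORC7, and 5.10 and 8.55 at AT5G52070. AT5G22860 had a MORC4 peak in replicate 2 only, at 3.01.

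Genic arm regions had an RNA polymerase II peak more often than the other MORC7 regions, in hex and in WT alike. In hex 490 of 1085 regions (45.2%, exact 95% interval 42.2 to 48.2) had a Pol II peak and in WT 535 (49.3%, 46.3 to 52.3), against backgrounds of 24.0% and 26.2%. The shares of other arm regions were 25.3% in hex and 28.6% in WT, and of pericentromeric regions 10.9% and 10.5%. The genic arm regions lie in protein-coding genes by the rule, so a difference in Pol II between them and regions outside genes follows in part from the choice. Within the genic arm regions, those with a summit near the start had a Pol II peak in 53.3% in hex and 57.5% in WT, and those in the gene body in 36.3% in hex and 39.6% in WT. Both libraries had a peak at 427 regions (39.4%), against 20.0% of all MORC7 regions. There was 1 library per genotype, so the difference between hex and WT has no replicate check.

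A Pol II peak in hex and none in WT was found at 63 genic arm regions (5.81%), against 3.99% of all MORC7 regions, and the reverse at 108 (9.95%), against 6.23%. The 5 strongest MORC7 regions of the first kind were at AT5G52070, SPL13A, AT5G18030, BGAL2 and BZIP27. AT5G18030 encodes a SAUR protein, a family of early auxin-responsive genes, BGAL2 a beta-galactosidase and BZIP27 a bZIP transcription factor. Their Pol II fold enrichments in hex were 2.31, 2.13, 2.83, 2.11 and 2.14 in that order, against a minimum of 2 for a peak. A region without a listed peak can hold signal just under the threshold.

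ZF-DMS3-HA plants had a MORC7 peak at most genic arm regions. Anti-FLAG gave a peak at 941 of 1085 regions (86.7%, exact 95% interval 84.6 to 88.7), against a background of 91.8%. Anti-HA, which precipitates the zinc finger fusion, gave a peak at 736 (67.8%, 65.0 to 70.6), against 53.9% over all MORC7 regions, 62.6% of other arm regions and 33.2% of pericentromeric regions. The share was 73.2% near the start and 60.1% in the gene body. This anti-HA list was the largest of the 22, with 17271 peaks over 11.3 Mb. With the 2000 highest peaks of each list, the anti-HA share was 15.2% of 165 regions. Anti-HA from plants with MORC7-FLAG only, in which no HA tag was expressed, gave a peak at 2 genic arm regions (0.184%), against 0.0934% of all regions, in a list of 8 peaks. Those 2 were ACT2, at 5.76, and MORC7, at 4.96. Anti-FLAG from plants without a tag gave a peak at 6 genic arm regions (0.553%) in replicate 1 and 10 (0.922%) in replicate 2, against 0.233% and 1.74% of all regions. Neither ACT2 nor MORC7 was among them. The labels also call these 2 libraries ChIP input, and the control against which any list was called is not given in the sources used here, so a low share in them may not measure the background of the tagged lists. The highest untagged fold enrichments were 2.11 at RALF23 in replicate 1 and 3.10 at IAA18 in replicate 2, and AG, a floral homeotic gene, had 2.23 in replicate 2.

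The hosts were described by the words of their RefSeq product names, beside all 24269 protein-coding genes of the arms. A transcription factor was named in 36 of 1072 hosts (3.36%), against 1.59% of arm genes, and a kinase in 78 (7.28%), against 5.26%. Disease resistance or NB-ARC proteins made up 15 hosts (1.40%), against 0.713%, and transposon words were found in 5 hosts (0.466%), against 0.243%. Lower shares than among arm genes were found for pentatricopeptide proteins, with 2 hosts (0.187%) against 1.07%, ribosomal proteins, with 4 (0.373%) against 1.52%, and histones, with 0 hosts against 0.424%. F-box proteins were 17 hosts (1.59%), against 2.32%, and heat shock proteins were 3 hosts (0.280%), against 0.412%. Zinc finger proteins made up 2.05% of hosts and 1.94% of arm genes, cytochrome P450 0.933% and 0.939%, and hypothetical or unknown proteins 11.01% and 10.2%. None of these shares was tested. The hosts had a median length of 2646 bp, against 2078 bp for all protein-coding genes. The part of gene length in these shares was not tested.

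Of 7 floral organ genes listed as tissue markers, 4 were hosts, the MADS-box genes AP3, AG, SEP2 and SEP3. For comparison, hosts numbered 1072 beside 24269 protein-coding genes of the arms, and the difference was not tested. Each of the 4 genes had a region over its transcription start. AP3 specifies petals and stamens, AG stamens and carpels, and the SEP genes act with them in all floral organs. A MORC7 peak was present in 9 of 9 RdDM mutant lists at AG, in 8 at SEP3, in 6 at AP3 and in 3 at SEP2. The region at AG, chr4:10380512-10385297, had a fold enrichment of 3.66 in met1, against 4.54, 2.62 and 4.27 in wild type. SEP3 had 5.03 in met1, against 3.60, 2.55 and 3.88 in wild type, and AP3 had 2.45 in met1, against 3.00, 2.14 and 2.19 in wild type. SEP2 had 4.57 in met1, against 2.78, 2.26 and 3.06 in wild type. All 4 had a Pol II peak, at 2.34 in hex and 2.74 in WT for AG, 4.08 and 4.12 for SEP3, 2.27 and 3.02 for AP3, and 3.02 and 3.01 for SEP2.

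The RNA-seq libraries are labelled floral tissue as well, yet transcripts of leaf genes prevailed and floral organ genes were near 0. The summed level of the 7 floral organ genes was 3.05 to 3.38 TPM in libraries labelled hex, 2.35 to 3.83 in libraries labelled nrpe1 and 1.80 to 2.96 in WT, with no gene above 2.11 TPM in any library. The summed level of 4 leaf genes (RBCS1A, LHCB1.1, CAB3 and RCA) was 50780 to 60055 TPM in libraries labelled hex, 36703 to 51288 in libraries labelled nrpe1 and 59984 to 62347 in WT. The tissue of the ChIP libraries could not be checked in this way. The 2 pollen genes VGD1 and VGDH1 summed to 42.8 TPM in 1 library labelled nrpe1 (replicate 3) and to at most 0.88 TPM over libraries labelled hex, with a maximum of 0.52 TPM for WT. Seed storage genes and the root gene PYK10 were at or below 0.170 TPM in every library. The part of these differences in host transcript levels was not tested.

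The mutated genes went against the labels. MORC1 had 8.39 ± 0.739 TPM in libraries labelled hex and 1.96 ± 0.162 in libraries labelled nrpe1, against 7.83 ± 0.358 in WT, and MORC7 had 2.04 ± 0.659 TPM in libraries labelled hex and 0.51 ± 0.0794 in libraries labelled nrpe1, against 2.54 ± 0.697 in WT (SD, n = 3 each). NRPE1 had 0.543 ± 0.0666 TPM in libraries labelled hex and 1.41 ± 0.325 in libraries labelled nrpe1, against 1.58 ± 0.269 in WT, and was called in neither comparison. Libraries are therefore named by their label only, and a direction is given for the library labelled so. Of the 6 MORC genes, 5 were tested: in libraries labelled nrpe1, 4 fell and MORC4 rose, and in libraries labelled hex none was called. Of 17 RdDM genes, 15 were tested and none was called in either comparison.

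Host transcripts covered the whole range of expression. Of the 1072 hosts, 1051 were in the TPM tables, with a median of 5.80 TPM in WT (quartiles 0.803 and 19.5), against 3.93 TPM (0.0800 and 15.0) for 23749 protein-coding genes of the arms. In WT 27.0% of hosts were under 1 TPM, against 36.4% of arm genes. The median was 11.2 TPM for 532 hosts with a Pol II peak in WT at the region and 2.04 TPM for 519 hosts without. It was 8.06 TPM for hosts with a summit near the start and 4.70 TPM for hosts with a summit in the gene body. The hosts with the highest level were LHCA2, PSAN, GAPA, AGP15 and AT1G11860. LHCA2 and PSAN encode proteins of photosystem I, GAPA a glyceraldehyde 3-phosphate dehydrogenase of the Calvin cycle, AGP15 an arabinogalactan protein and AT1G11860 the T-protein of glycine cleavage. LHCA2 averaged 7420 ± 60.6 TPM in WT and PSAN 5575 ± 240 TPM (SD, n = 3 each). The peaks of LHCA2 had wild-type fold enrichments of 5.14, 2.56 and 4.95.

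In libraries labelled hex, 4 hosts rose and 1 fell against WT, of 797 hosts tested. The call required a Benjamini-Hochberg adjusted p below 0.05 over 17459 genes in limma and a change of at least 2-fold on log2(TPM + 1), which understates the change of low genes. The hosts' shares were 0.502% higher and 0.125% lower, against backgrounds of 0.235% and 0.0859%. The median log2 change of the hosts was 0.03, against 0.02 for all genes tested. At an unadjusted p below 0.05, 48 hosts and 827 of all genes passed. Without any one of the 3 WT libraries, or without nrpe1-labelled replicate 2, 2 hosts rose in place of 4, with no count of all genes beside them.

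ROS1, listed as DML1, encodes a glycosylase that removes 5-methylcytosine from DNA and was the host that fell. It had 0.960, 0.400 and 0.970 TPM in libraries labelled hex and 12.1, 13.4 and 16.4 TPM in libraries labelled nrpe1, against 10.6, 7.65 and 8.68 TPM in WT. The libraries labelled hex lay below all others, with a log2 change of −2.50 ± 0.17 (SE) and an adjusted p of 0.00016 in limma. In libraries labelled nrpe1 the change was 0.58 ± 0.17 with an adjusted p of 0.046, under the 2-fold minimum. ROS1 held 2 genic arm regions. The region over its start, chr2:15314089-15315185, had a peak in 8 of 9 RdDM mutant lists and none in met1 or in either Pol II list, with fold enrichments of 3.35, 2.66 and 4.43 in wild type. The region in coding sequence, chr2:15308332-15309008, had 2.18 and 2.15 in wild-type replicates 1 and 3.

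AT3G54730, annotated as a transcription repressor, rose most. It had 39.7, 39.0 and 40.7 TPM in libraries labelled hex and 0.320, 0.480 and 0.310 TPM in libraries labelled nrpe1, against 0.110, 0.110 and 0 TPM in WT. The log2 change in libraries labelled hex was 5.25 ± 0.10 (SE) with an adjusted p of 2.8e-08 in limma. The libraries labelled hex and WT did not overlap, which the choice of named hosts required. Its region, chr3:20258764-20260949, covered the whole gene, with a peak in 8 of 9 RdDM mutant lists and fold enrichments of 4.06 and 3.85 in wild-type replicates 1 and 3.

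AT5G24240, which encodes a protein like phosphatidylinositol 4-kinase gamma, had 2.49, 12.1 and 8.33 TPM in libraries labelled hex, against 0.02, 0.05 and 0.11 TPM in WT. Its log2 change was 2.83 ± 0.42 (SE) with an adjusted p of 0.028 in limma. A gene on the other strand, AT5G24230, overlaps it, and the sources used here do not say whether counting used the strand. ARP9, an actin-related gene, had 18.2, 19.5 and 12.02 TPM in libraries labelled hex, against 7.97, 6.58 and 6.15 TPM in WT, a log2 change of 1.13 ± 0.17 (SE) with an adjusted p of 0.031 in limma. Both lost the call in a range of settings: AT5G24240 in 9 of 14 (adjusted p 0.00078 to 0.18) and ARP9 in 8 of 14 (0.0030 to 0.20).

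AT5G52070 was the host called in both comparisons. It had 25.3, 23.0 and 17.8 TPM in libraries labelled hex and 26.1, 22.1 and 18.7 TPM in libraries labelled nrpe1, against 4.33, 5.19 and 5.08 TPM in WT. The log2 change was 1.96 ± 0.15 (SE) with an adjusted p of 0.00035 in libraries labelled hex and 1.98 ± 0.15 with an adjusted p of 0.00030 in libraries labelled nrpe1, both in limma. The 2 comparisons share the WT libraries. Its region, chr5:21159720-21163649, covered the start and had a peak in all MORC7-FLAG and MORC4-FLAG lists and in the Pol II list of hex. The highest fold enrichment in a mutant was 12.4 in nrpe1 replicate 1, against 6.13, 4.37 and 4.89 in wild type.

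Stretches of 121 bases from the regions of these 5 hosts are given, free of UTR sequence and nearest to the summit, with CG sites in capitals.
ROS1, chr2:15314808-15314928, minus strand: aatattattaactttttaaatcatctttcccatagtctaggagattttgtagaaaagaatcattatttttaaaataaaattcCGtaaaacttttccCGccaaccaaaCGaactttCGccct
AT3G54730, chr3:20260302-20260422, plus strand: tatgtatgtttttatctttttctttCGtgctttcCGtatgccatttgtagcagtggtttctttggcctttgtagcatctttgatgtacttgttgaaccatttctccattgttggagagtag
AT5G24240, chr5:8234151-8234271, minus strand: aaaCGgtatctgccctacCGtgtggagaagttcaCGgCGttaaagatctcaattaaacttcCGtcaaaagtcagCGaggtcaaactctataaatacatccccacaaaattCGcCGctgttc
ARP9, chr5:17469369-17469489, plus strand: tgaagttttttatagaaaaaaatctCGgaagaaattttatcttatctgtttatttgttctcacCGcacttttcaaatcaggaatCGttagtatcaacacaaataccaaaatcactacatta
AT5G52070, chr5:21161954-21162074, plus strand: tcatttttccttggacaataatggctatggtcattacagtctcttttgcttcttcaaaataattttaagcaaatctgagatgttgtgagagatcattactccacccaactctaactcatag
The stretches of ROS1, AT5G24240 and ARP9 end at the base before the transcription start and hold 4, 8 and 3 CG sites. The stretch of AT3G54730 ends the coding sequence and holds 2, and the stretch in an intron of AT5G52070 holds 0.

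**Figure D5:**
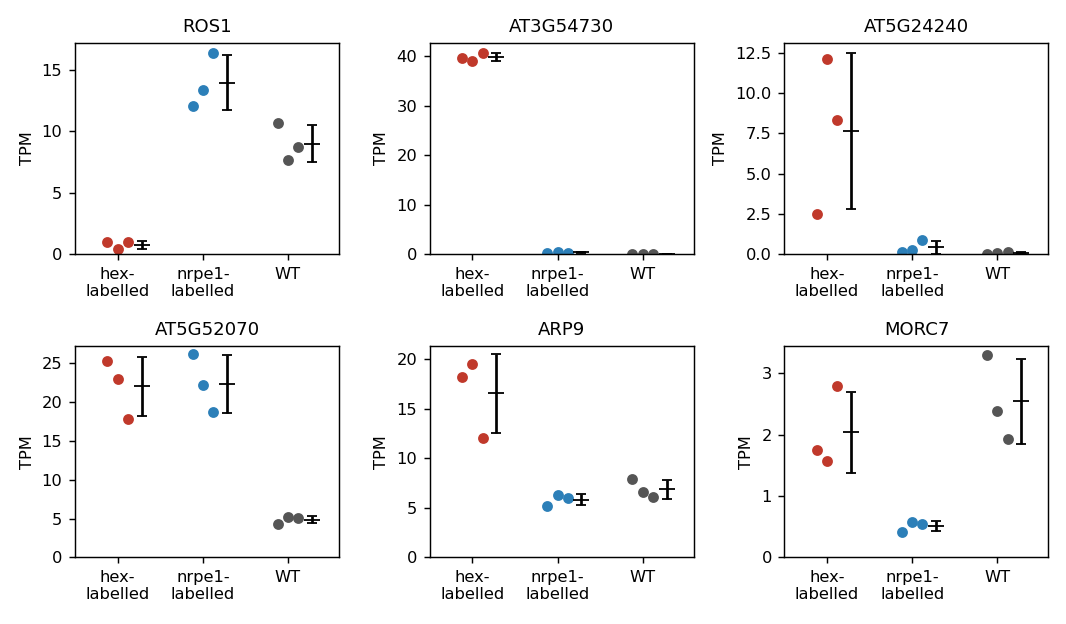
Transcript level in TPM (y axis, linear, from 0) of 6 hosts in each of 3 libraries labelled hex, 3 labelled nrpe1 and 3 of WT (points), with the mean and SD beside them. ROS1 lies below 1 TPM in the libraries labelled hex, against 7.65 to 10.6 TPM in WT, and AT5G52070 lies above WT in both other groups.

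In libraries labelled nrpe1, 16 hosts rose (2.01% of 797) and 10 fell (1.25%), against backgrounds of 2.31% and 1.63% of all genes, shares near those of all genes. The median log2 change was 0.10 in hosts and 0.08 in all genes. These counts depended on single libraries, and the counts of all genes in the same fits are not given beside them. Without nrpe1-labelled replicate 2, or without WT replicate 1 or 2, 2 hosts rose and 0 fell, and without nrpe1-labelled replicate 1, 40 rose and 29 fell. Without nrpe1-labelled replicate 3, the library with pollen transcripts, 3 rose and 0 fell. Without WT replicate 3 or hex-labelled replicate 1, 4 rose and 2 fell, and without hex-labelled replicate 2, 4 rose and 1 fell. At an unadjusted p below 0.05, 355 of 797 hosts and 7726 of all 17459 genes passed in limma in the fit of all 9 libraries.

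Among the 16 hosts that rose, MRD1 had the largest change, with 20.4, 19.5 and 17.2 TPM in libraries labelled nrpe1, against 0.14, 0.1 and 0.65 TPM in WT (log2 change 3.97 ± 0.87 SE, adjusted p 0.038 in limma). It shares its region, chr1:19962956-19964429, with HEI10, a gene of meiotic crossover formation on the other strand, and in libraries labelled hex it had 25.6, 0.310 and 8.52 TPM, which overlapped WT. MT2A, a metallothionein, had 362, 947 and 1237 TPM in libraries labelled nrpe1, against 146, 173 and 244 TPM in WT. AT1G13470, a DUF1262 gene, had 16.9, 25.2 and 9.92 TPM, against 5.37, 2.12 and 1.51 TPM in WT. AT1G11785 had 2.12, 3.51 and 3.80 TPM, against 0.110, 0.180 and 0.570 TPM in WT. The other rises of the leading 8 were AT5G52070 above, AT3G63210, a DUF581 gene linked by its name to abscisic acid, at 1.48, the pectin acetylesterase gene AT4G19420 at 1.44, and AT1G77885 at 1.3, all as log2 changes. AT5G11430, a gene with a SPOC domain that lies outside the rule for named genes and was chosen after its values were seen, had 12.5, 12.9 and 13.1 TPM, against 5.01, 5.39 and 6.02 TPM in WT. AT5G52070 kept its call in 14 of 14 alternative settings and AT5G11430 in 13 of 14. The other 7 named rises lost it in 5 (AT1G11785) to 11 (AT4G19420) of 14, with adjusted p of 0.00015 to 0.14 over the settings in limma.

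Among the 10 hosts that fell, AT5G02890, an acyltransferase gene, had 17.4, 7.03 and 3.81 TPM in libraries labelled nrpe1, against 28.6, 21.8 and 22.0 TPM in WT. FLN1, which acts in transcription of the chloroplast genome, had 15.1, 5.38 and 5.51 TPM, against 22.5, 20.7 and 20.6 TPM in WT. TRN2, a tetraspanin of leaf patterning, had 7.81, 5.34 and 2.69 TPM, against 13.2, 13.6 and 13.9 TPM in WT. AT1G73620, a thaumatin-like gene, had 0.630, 0.370 and 0.290 TPM, against 3.14, 2.38 and 1.74 TPM in WT. The groups did not overlap in any of these 4, which the choice of named hosts required. The log2 changes were −1.48, −1.35, −1.30 and −1.24, with adjusted p of 0.043, 0.041, 0.038 and 0.028 in limma. MORC7 was also among the hosts that fell, at −1.21 ± 0.19 (SE) with an adjusted p of 0.023. Of these 5, AT5G02890, FLN1 and TRN2 lost the call in 9 of 14 settings, AT1G73620 in 6 and MORC7 in 5, with adjusted p of 0.0025 to 0.135 over the settings in limma.

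The other hosts on the lists of methylation genes were CMT2 and FWA. CMT2 encodes a methyltransferase of CHH sites, and its region of 394 bp over the start, chr4:10414246-10414639, had a fold enrichment of 2.34 in met1, against 2.49 and 2.098 in wild-type replicates 1 and 2. Its transcript had 8.36, 8.81 and 6.57 TPM in libraries labelled hex and 6.36, 4.48 and 4.58 TPM in libraries labelled nrpe1, against 8.57, 7.85 and 7.06 TPM in WT, and it was called in neither comparison. The log2 change in libraries labelled nrpe1 was −0.53 ± 0.15 (SE), under the 2-fold minimum, with an adjusted p of 0.040 in limma. FWA encodes a homeodomain protein whose gene is kept silent by methylation of its promoter in vegetative tissue. Its region, chr4:13038008-13038858, had a peak in 4 of 9 RdDM mutant lists and none in met1. Its fold enrichment with FLAG was 3.72 in ZF-DMS3-HA plants, against 2.06 and 3.37 in wild-type replicates 1 and 3. With HA, another antibody, it was 6.25 in ZF-DMS3-HA plants. The paper used the same zinc finger to direct MORC proteins to FWA, so FWA is a target site of the fusion. The FWA transcript was listed at 0 TPM in 8 of 9 libraries and at 0.0800 TPM in nrpe1-labelled replicate 3. None of the 17 RdDM genes was a host, and of the 6 MORC genes MORC7 alone was. Hosts numbered 1072 beside 24269 protein-coding genes of the arms, so few hosts would be found in lists this short. No enrichment or lack of hosts in these lists was tested.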

How the data were processed

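The files of 31 of 47 samples were used, 22 ChIP-seq and 9 RNA-seq libraries, and the other samples were not analysed here. For ChIP-seq the authors aligned reads to TAIR10 with Bowtie2 2.1.0, kept reads with a single perfect place, discarded duplicates (SAMtools 1.9) and called peaks in MACS2 2.1.1; the control is not given in the sources used here. Each list is deposited under 1 library, whereas the methods describe peak calls on pooled MORC7 ChIPs (3 in wild type, 2 in RdDM mutants), and whether any list used here rests on pooled reads is not given. The deposited peak lists give a fold enrichment and a −log10 q value for each peak. For RNA-seq the authors deposited TPM values made with RSEM 1.3.1. The table of nrpe1-labelled replicate 2 holds its genes in 2 identical copies, of which 1 was read. Depth is unknown for both kinds of file.

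Peaks with a −log10 q value above 2 and a fold enrichment above 2 were merged over the 3 wild-type lists where they shared at least 1 bp, and regions with a peak in at least 2 lists were kept. A region had a peak in another list where they shared at least 1 bp. Intervals are exact Clopper-Pearson 95% intervals over regions and cover counting error only. The RefSeq annotation of TAIR10.1, whose chromosomes have the lengths of TAIR10, gave genes and sequences. Motifs and CG sites were counted in 201 bp windows. Genes that reached 1 TPM in 3 or more libraries entered a fit with limma 3.58.1 on log2(TPM + 1) over all 9 libraries, with Benjamini-Hochberg adjustment over 17459 genes, and the script was tested on simulated data. Named hosts were the called ones without overlap between groups (up to 10 for hex, 8 rises and 4 falls for nrpe1), the 5 leading regions of each pattern, the hosts on the gene lists and the 5 most abundant hosts. The regions, lists and tests were chosen with earlier results of these data known. Python 3.11.15, pandas 2.3.3, NumPy 2.4.6 and R 4.3.3 were used.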

Additional observations from a re-analysis of the deposited data

How the results depend on the processing

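The depth of the peak lists and of the RNA libraries is unknown, so a missing peak is no sign of missing protein. With a −log10 q value and a fold enrichment above 3, 252 genic arm regions were left, with a peak at 56.0% in met1, 7.94% for Pol II in hex and 7.94% in WT, 49.6% for ZF-DMS3-HA with anti-HA, 0.794% in the HA control and 0.198% without a tag. With the 2000 highest peaks of each list the values were 165 regions, 56.4% in met1, 12.7% for Pol II in hex and 10.9% in WT, 73.9% with anti-FLAG and 15.2% with anti-HA in ZF-DMS3-HA plants, 1.21% in the HA control and 4.55% without a tag. Where a peak had to share 50% of the shorter interval, the anti-HA share was 63.9%. Regions with a peak in all 3 wild-type lists numbered 463, with 73.0% in RdDM mutants, 87.0% in met1, 54.4% for Pol II in hex and 56.4% in WT, and 99.1% with anti-FLAG and 80.1% with anti-HA in ZF-DMS3-HA plants. Without regions that had a peak in an untagged list, the untagged share was 0% by construction. Regions wholly inside a gene numbered 339, with 34.2% for Pol II in hex and 41.3% in WT, 83.8% with anti-FLAG and 61.7% with anti-HA in ZF-DMS3-HA plants, 0% in the HA control and 0.295% without a tag. Without 1 wild-type list at a time there were 468 to 792 regions, with 54.0% to 71.5% in RdDM mutants, 69.2% to 86.8% in met1, 20.1% to 27.8% for MORC4, 40.4% to 55.1% for Pol II in hex and 42.3% to 59.7% in WT. The same ranges were 88.9% to 98.5% with anti-FLAG and 66.3% to 78.8% with anti-HA in ZF-DMS3-HA plants, 0.253% to 0.427% in the HA control and 0.427% to 0.867% without a tag.

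Genic arm regions stayed below other arm regions in the RdDM mean, and above them in Pol II and GAGAGA shares, under all of these alternatives except regions wholly inside a gene, for which no other arm regions were set beside them. The met1 share turned below that of other arm regions (69.9% in genic arm regions, 75.7% in other arm regions) without wild-type replicate 3. Hosts that rose in libraries labelled hex numbered 2 without the filter on low TPM, 2 with only the 6 libraries compared and 2 among hosts of regions in all 3 lists. Hosts that rose in libraries labelled nrpe1 numbered 26 with a pseudocount of 0.1, 2 without the filter, 4 with the 6 libraries and 7 for regions in all 3 lists. Hosts that fell there numbered 0, 2 and 4 under the last 3 of these. Without 1 library at a time, 2 to 4 hosts rose and 1 to 1 fell in libraries labelled hex, and 2 to 40 rose and 0 to 29 fell in libraries labelled nrpe1. The replicate numbers did not pair the libraries, with correlations of same-numbered deviations of 0.08, −0.14 and 0.15 for nrpe1 and −0.14, −0.02 and −0.10 for hex against WT. With the replicate block 5 hosts rose and 1 fell in libraries labelled hex, and 21 rose and 12 fell in libraries labelled nrpe1. The cause of these changes was not tested. The counts of all genes under these alternatives are not given here, so the host counts have no background beside them.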
